A study of Mus musculus with 8 samples.

Results

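The genes described here are 37 genes of glycolysis and of the response to low oxygen, out of 21368 genes that the array's probes could be matched to. They were chosen by function: 15 glycolytic enzymes and their regulators, 4 carriers of glucose or lactate, the hypoxia-inducible factors Hif1a and Epas1, and 16 other genes known as targets of these factors. They have 55 of the 55681 distinct array features, and 34 of the 37 had a probe bright enough to test, against 16761 of all genes. Measurements came from breast tumours of FVB mice, as RNA on 8 two-colour arrays. The 4 FGFR1 KO samples carried K19-tva with fgfr1 loxP/loxP, an allele made in ICR mice and crossed back into FVB, and the 4 WT samples carried K19-tva alone. K19-tva is a transgene in which the keratin 19 promoter drives the receptor for an avian virus, so both groups share it. The labels give neither the age of the mice, the oncogene, nor the agent that removed the floxed part of Fgfr1. They do not say whether samples came from separate animals, so the p-values measure only the spread between these samples.

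In a cell with enough oxygen, prolyl hydroxylases mark the HIF alpha subunits for destruction. When oxygen runs low these subunits accumulate, mostly without a change in their own mRNA, and bind a short core motif near genes for glucose uptake, glycolysis, lactate export, blood vessel growth, pH control and mitochondrial turnover. Many tumours express the same genes in the presence of oxygen, and skeletal muscle expresses its own high amounts of several glycolytic enzymes.

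All values are the log2 ratio of tumour RNA (red) to a human reference RNA (green) on the same array, and each difference is FGFR1 KO minus WT with its standard error from limma's fit over all probes. A negative difference is a lower level in FGFR1 KO. A gene is represented by its brightest tested probe. Between 68.9% and 83.9% of probes were well above background in red in FGFR1 KO, and between 43.9% and 69.2% in WT. All 8 arrays lay on 1 slide, the FGFR1 KO arrays in one row and the WT arrays in the other, and the effects of row and of genotype cannot be told apart. The number of arrays limits the precision of every value.

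The 3 tested Fgfr1 probes did not separate the groups, with differences of −0.00 ± 0.12, −0.10 ± 0.41 and −0.49 ± 0.66 and adjusted p-values from 0.841 to 1.00. They read 0.19 to 0.45, −0.42 to 1.64 and −1.99 to 1.76 in FGFR1 KO, and 0.23 to 0.38, 0.22 to 0.78 and 0.49 to 0.91 in WT, and the lowest value of the last 2 was on FGFR1 KO 4. Where these probes lie relative to the floxed part is not known here, so they check nothing about the labels. WT 2 stood apart from the other arrays: its mean correlation with them over all distinct array features was 0.365, against 0.560 to 0.678 for the other arrays. The median log2 ratio of 15 skeletal muscle genes reached 8.30 on WT 2 and 1.76 on WT 1, while the remaining 6 arrays gave −0.33 to 0.45. For 11 adipocyte genes it was 3.87 on WT 2 and 3.15 on WT 1, and −0.03 to 0.43 elsewhere. The median of 8 luminal epithelium genes, the cells that line mammary ducts, was −0.73 on WT 2 and 1.60 to 2.92 on the other arrays. Values without WT 2, or without WT 1 and WT 2, are therefore given beside a difference where leaving them out turned its sign or moved it by over 1.5 times. In bulk RNA, fewer cells of a type and less RNA per cell cannot be told apart.

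No member of the set passed the test across all probes. At an adjusted p under 0.05, limma called 4 of 39795 probes (0.0101%), none of them a member's, and the members' adjusted p-values ran from 0.402 to 0.965. Without adjustment, 3 of the 34 tested members (8.82%) had a p under 0.05 on the lower side, namely Pfkfb3, Bnip3 and P4ha2, against 4.78% of all genes. On the higher side no member did, against 3.1% of all genes. The 4 FGFR1 KO values lay below all 4 WT values for Pfkfb3 and Bnip3, which is 5.88% of the tested members against 2.5% of all genes. In the other direction no member separated the groups, against 1.85% of all genes.

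The promoters of Pfkfb3 and Bnip3 are shown because these were the members whose groups did not overlap. Each line gives the 250 bases before the transcription start on the minus strand of GRCm38.p6, from RefSeq, at chr2:11502091-11502340 for Pfkfb3 and at chr7:138909507-138909756 for Bnip3. Capitals mark the HIF core motif, ACGTG or GCGTG on either strand, which reads CACGT or CACGC on the other strand.
Pfkfb3 promoter: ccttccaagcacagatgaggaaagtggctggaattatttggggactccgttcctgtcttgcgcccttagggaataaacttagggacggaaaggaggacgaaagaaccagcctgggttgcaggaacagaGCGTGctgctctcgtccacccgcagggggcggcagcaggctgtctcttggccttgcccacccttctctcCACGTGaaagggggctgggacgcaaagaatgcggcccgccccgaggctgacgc
Bnip3 promoter: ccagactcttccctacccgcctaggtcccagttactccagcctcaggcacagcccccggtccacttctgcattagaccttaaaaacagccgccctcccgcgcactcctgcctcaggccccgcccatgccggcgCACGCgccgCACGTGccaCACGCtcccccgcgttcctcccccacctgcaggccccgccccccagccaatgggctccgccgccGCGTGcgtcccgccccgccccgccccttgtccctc
The Pfkfb3 stretch holds 3 matches and the Bnip3 stretch 5. In both, a CACGTG palindrome counts once on each strand, and this palindrome is also the E-box read by other factors such as Myc. Pfkfb3 has 2 annotated start sites, and the one with more matches was printed. With the 50 bases after the start included, the printed site holds 4 matches and the other holds 1. Windows of 250 bases before to 50 after the start held the motif in 31 of the 34 members with a window (91.2%), and in 46.7% of all 27025 genes with one. A gene counts here if any of its windows has a match. By window the shares were 77.6% of the members' 49 and 43.8% of all 32851. Many members were chosen as known HIF targets, so these shares are no test of the set. By group, 13 of 15 glycolytic genes, 14 of 15 other HIF targets, 3 of 3 carriers and Hif1a had a match. A match is a description of the letters and shows no binding.

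Glycolytic enzymes and their regulators mostly read lower in FGFR1 KO, by amounts within the spread of the arrays. All 15 were tested, 12 had a difference below 0, and the median difference was −0.40, with a range from −1.68 to 0.94. Over all genes tested the median was −0.00 and 50.4% lay below 0. The median of the 15 genes was −1.67, 0.05, −0.43 and −0.80 on FGFR1 KO 1 to 4, and −0.51, 0.93, −0.59 and −0.22 on WT 1 to 4. FGFR1 KO 1 was the lowest array for 9 of the 15 and WT 2 the highest for 9. The median difference was −0.18 without WT 2, −0.07 without FGFR1 KO 1 and −0.85 without FGFR1 KO 2, so single arrays of either group moved it by more than 1.5 times.

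**Figure D1:**
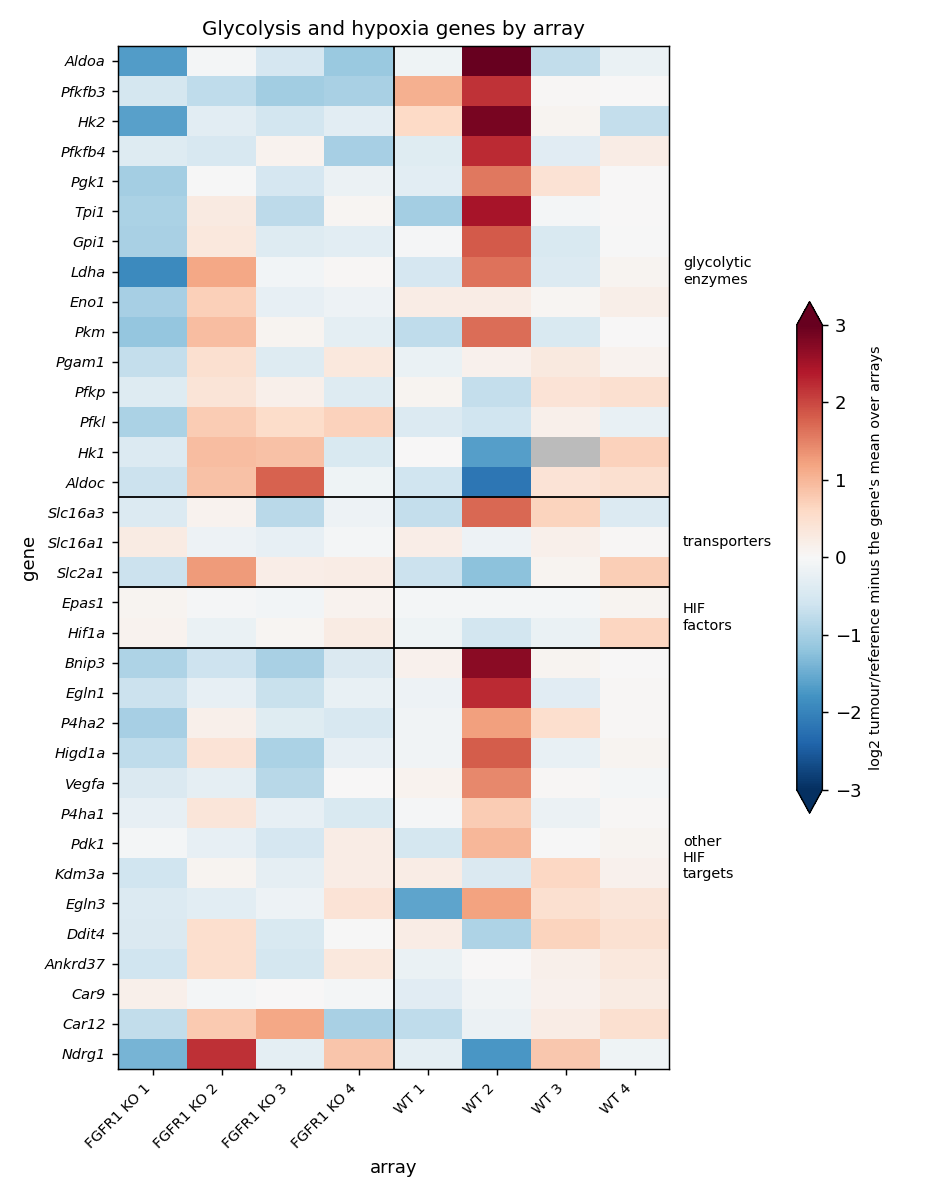
Heat map of the 34 tested members (one line per gene, ordered by difference within each group) on the 8 arrays; colour is the log2 tumour/reference ratio minus the gene's mean over the arrays, capped at 3 in either direction, and grey marks a value that was not used. WT 2 is the highest array for 18 of the 34 genes and the lowest for 7, and FGFR1 KO 1 is the lowest for 12.

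Entry of glucose into the pathway is the step of the hexokinases, which phosphorylate glucose. Hk2, the inducible hexokinase of muscle, fat and many tumours, read −2.02, −0.69, −0.94 and −0.70 on FGFR1 KO 1 to 4 and 0.22, 2.47, −0.31 and −1.10 on WT 1 to 4. WT 2 was far above the rest, and WT 4 fell inside the FGFR1 KO range. The difference was −1.41 ± 0.69 (adjusted p = 0.620), −0.69 without WT 2, and −0.38 without WT 1 and WT 2. Hk1, the housekeeping hexokinase, had a difference of 0.56 ± 0.60 from 3 WT arrays, since its WT 3 spot was an outlier. At this probe the difference was −0.11 without WT 2 and −0.45 without WT 1 and WT 2, which leaves WT 4 alone. A second Hk1 probe gave 0.44 ± 0.29, 0.18 without WT 2, and 0.02 without WT 1 and WT 2. Gpi1, which turns glucose 6-phosphate into fructose 6-phosphate, differed by −0.68 ± 0.49 and by −0.11 without those arrays.

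The bifunctional enzymes that set the level of fructose 2,6-bisphosphate, the strongest activator of phosphofructokinase, held the member with the smallest p. Pfkfb3, the HIF-inducible form with high kinase activity, read 0.79, 0.57, 0.29 and 0.36 on FGFR1 KO 1 to 4, and 2.40, 3.50, 1.37 and 1.33 on WT 1 to 4. Every WT array was above every FGFR1 KO array, and WT 1 and WT 2, the arrays with fat and muscle genes, were the highest. The difference was −1.65 ± 0.45, a ratio of 0.318 (adjusted p = 0.402). Without WT 2 it was −1.20, and without WT 1 and WT 2 it was −0.85, with the groups still apart.

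A second Pfkfb3 probe, for another RefSeq transcript, read −0.27, −0.26, −0.51 and 0.28 in FGFR1 KO and 0.56, 1.87, 0.63 and 0.52 in WT. Its groups did not overlap either, and its difference was −1.08 ± 0.32 (adjusted p = 0.439), or −0.76 without WT 1 and WT 2. The first probe lay in the rectangle of rows 97 to 336 and columns 83 to 164 of the array, where the negative controls read bright on WT 1 and WT 3, and the second lay outside it. In that rectangle the red negative controls had a median of 35.5 above background on WT 1 and 41.0 on WT 3, whereas the other arrays gave 0 to 6.25. It holds 31.8% of all features and the representing probes of 9 members: Hk1, Hk2, Pfkl, Pfkfb3, Aldoc, Vegfa, Bnip3, Car12 and Kdm3a. Pfkfb4, a related enzyme also induced by HIF, differed by −0.88 ± 0.55, with WT 2 at 2.02 and the other arrays from −1.22 to 0.01, and by −0.28 without WT 2. It was well above background on 3 FGFR1 KO and 2 WT arrays.

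The forms of phosphofructokinase itself, the rate-setting enzyme, differed in sign. Pfkl, the liver type, differed by 0.53 ± 0.38 (adjusted p = 0.717), with FGFR1 KO 1 at −0.85 and the other FGFR1 KO arrays from 0.65 to 0.85. Without FGFR1 KO 1 it was 0.93 ± 0.20 (adjusted p = 0.324), with the groups apart, and without WT 1 and WT 2 it was 0.30. Pfkp, the platelet type, differed by −0.12 ± 0.30, and by −0.50 without WT 1 and WT 2, when its groups no longer overlapped.

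Among the aldolases, which split the sugar, and the triose phosphate isomerase, WT 2 set most of the differences. Aldoa, the aldolase of muscle and most tissues, read −1.58, 0.05, −0.40 and −1.01 on FGFR1 KO 1 to 4 and −0.03, 4.52, −0.63 and −0.10 on WT 1 to 4. All but WT 2 lay between −1.58 and 0.05. The difference of −1.68 ± 1.04 (adjusted p = 0.679) became −0.48 without WT 2. Aldoc, the aldolase of brain, had the opposite sign, at 0.94 ± 0.68. Its lowest array was WT 2, at −0.68, and the difference was 0.37 without WT 2 and 0.03 without WT 1 and WT 2. Tpi1, which interconverts the triose phosphates, differed by −0.71 ± 0.67, by −0.00 without WT 2 and by −0.33 without WT 1 and WT 2. A second Tpi1 probe gave −0.68 ± 0.53, or −0.11 without WT 2 and −0.28 without both arrays.

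The later steps were closer to 0, apart from Pgk1. This phosphoglycerate kinase, which makes the first ATP of the pathway, read −2.98, −1.97, −2.47 and −2.14 in FGFR1 KO 1 to 4 and −2.28, −0.39, −1.54 and −1.94 in WT 1 to 4. Only WT 1 lay inside the FGFR1 KO range. The difference was −0.85 ± 0.40 (adjusted p = 0.608), or −0.47 without WT 2, and −0.65 without WT 1 and WT 2, when the groups no longer overlapped. Pgam1, the mutase, differed by −0.16 ± 0.27, by −0.28 without WT 1 and WT 2, and turned to 0.05 without FGFR1 KO 1. Eno1, the enolase, differed by −0.34 ± 0.31, by −0.07 without FGFR1 KO 1 and by −0.64 without FGFR1 KO 2.

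Pkm, the pyruvate kinase, read −1.67, 0.44, −0.43 and −0.80 in FGFR1 KO and −1.26, 1.19, −0.95 and −0.50 in WT. The groups overlapped widely, and the difference was −0.23 ± 0.59 (adjusted p = 0.921). It turned to 0.29 without WT 2 and to 0.11 without WT 1 and WT 2. Ldha, which turns pyruvate into lactate and is a classic HIF target, read −1.92, 1.15, −0.08 and 0.02 in FGFR1 KO and −0.51, 1.62, −0.42 and 0.06 in WT. Its highest and lowest FGFR1 KO arrays differed by more than any 2 WT arrays. The difference was −0.40 ± 0.67 (adjusted p = 0.877), 0.08 without WT 2, and −0.03 without WT 1 and WT 2. The other tested Ldha probes differed by −0.44 ± 0.60 and −0.45 ± 0.59. Without WT 2 they gave −0.02 and −0.00, and without both arrays −0.12 and −0.06.

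**Figure D2:**
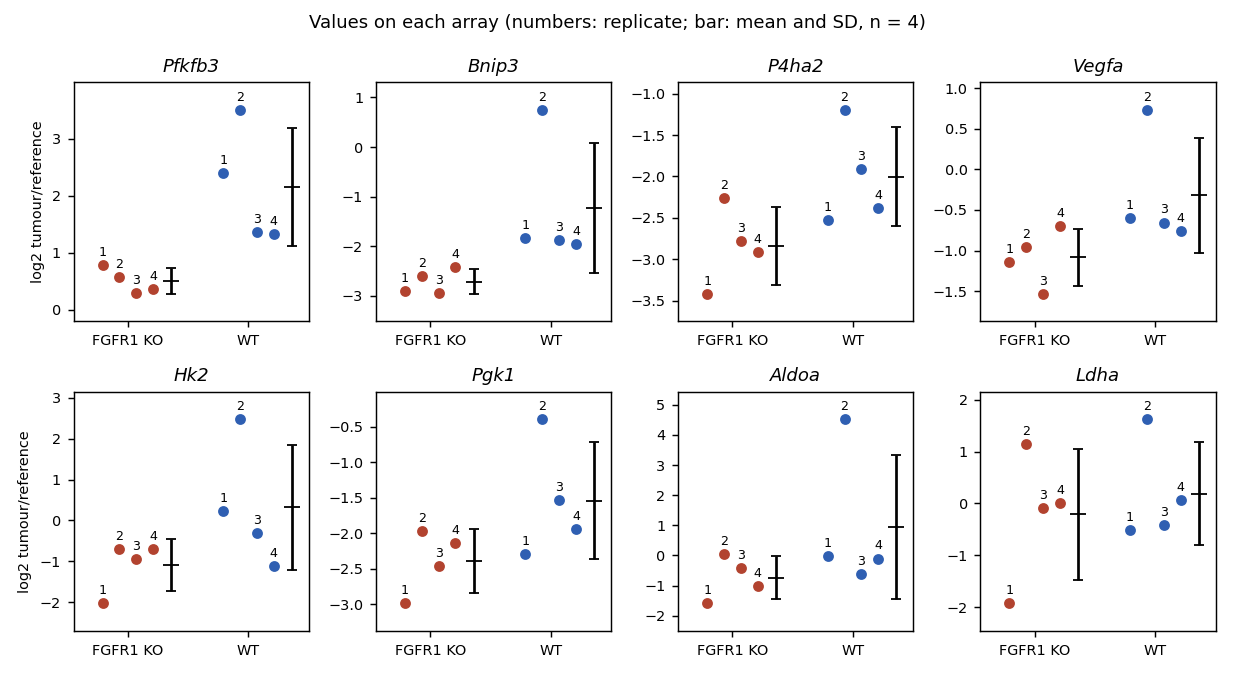
Log2 tumour/reference ratio of 8 members on each array, with FGFR1 KO in red and WT in blue; figures beside the points are replicate numbers, and bars are the mean and SD of 4 arrays. Pfkfb3 and Bnip3 are the genes with no overlap, and WT 2 is the highest point in all 8 panels.

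The carriers that bring glucose in and take lactate out did not share a sign, and none passed the test. Slc2a1, the glucose carrier GLUT1, read −2.55, −0.61, −1.69 and −1.68 in FGFR1 KO 1 to 4 and −2.54, −3.11, −1.82 and −1.15 in WT 1 to 4. WT 2 was the lowest array here. The difference was 0.52 ± 0.49 (adjusted p = 0.774). It was 0.20 without WT 2 and turned to −0.15 without WT 1 and WT 2. Slc16a3, the lactate exporter MCT4, read −1.30, −0.80, −1.70 and −1.05 against −1.61, 0.82, −0.23 and −1.30. WT 2 and WT 3 were its highest arrays. The difference of −0.63 ± 0.49 (adjusted p = 0.733) was −0.16 without WT 2 and −0.44 without WT 1 and WT 2. A second Slc16a3 probe gave −1.01 ± 0.61, or −0.44 without WT 2 and −0.73 without both arrays. Slc16a1, the lactate carrier MCT1, read 0.28, −0.12, −0.21 and −0.02 against 0.22, −0.11, 0.19 and 0.07, a difference of −0.11 ± 0.16 (adjusted p = 0.850), and −0.18 without WT 2. Slc2a3, the glucose carrier GLUT3, was not well above background on any array.

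The mRNAs of the factors themselves gave differences of 0.11 and 0.04. Hif1a read −0.84, −1.15, −0.88 and −0.69 in FGFR1 KO 1 to 4 and −1.09, −1.49, −1.14 and −0.29 in WT 1 to 4. The WT arrays enclosed the whole FGFR1 KO range, and the difference was 0.11 ± 0.25 (adjusted p = 0.909), with a 95% confidence interval from −0.46 to 0.68. Without WT 1 and WT 2 it was −0.17. Epas1, which encodes HIF-2 alpha and is abundant in endothelium, read 0.08, −0.04, −0.07 and 0.11 in FGFR1 KO and −0.06, −0.06, −0.06 and 0.09 in WT at its brightest probe. That probe was flat, with a difference of 0.04 ± 0.12 (adjusted p = 0.931), and 0.01 without WT 1 and WT 2. The other 2 Epas1 probes varied between arrays, from 0.91 to 3.96, were both highest on WT 2, and differed by −0.17 ± 0.47 and −0.14 ± 0.40. Both turned without WT 2, to 0.34 and 0.25, and were 0.58 and 0.49 without WT 1 and WT 2. Of the 11 members with more than 1 tested probe, Epas1 was the one whose probes lay on both sides of 0.

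The other HIF targets also mostly read lower in FGFR1 KO. Of 16 genes, 14 were tested, 11 had a difference below 0, and the median was −0.28, with a range from −1.48 to 0.68. The median of the 14 genes was −1.49, −1.0, −1.62 and −0.88 on FGFR1 KO 1 to 4 and −1.51, −0.39, −0.97 and −0.99 on WT 1 to 4, so the groups overlapped. Without WT 2 the median difference was −0.23, and without WT 1 and WT 2 it was −0.31.

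Bnip3, a mitochondrial protein that starts the removal of mitochondria by autophagy, read −2.89, −2.60, −2.94 and −2.41 in FGFR1 KO 1 to 4 and −1.83, 0.75, −1.88 and −1.95 in WT 1 to 4. The WT arrays were all higher, WT 2 by far. The difference was −1.48 ± 0.56, a ratio of 0.358 (adjusted p = 0.538). Without WT 2 it was −0.82, and the groups stayed apart. A second Bnip3 probe, outside the bright rectangle, also separated the groups, at −1.28 ± 0.57, or −0.62 without WT 2. The remaining probe overlapped, at −0.46 ± 0.40, or −0.04 without WT 2 and −0.16 without WT 1 and WT 2.

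Higd1a, another mitochondrial protein of the hypoxia response, differed by −0.78 ± 0.48, and by −0.30 without WT 2. Pdk1, a pyruvate dehydrogenase kinase, differed by −0.28 ± 0.31, by 0.01 without WT 2 and by −0.18 without WT 1 and WT 2.

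Vegfa, the growth factor for blood vessels, read −1.14, −0.96, −1.53 and −0.69 in FGFR1 KO 1 to 4 and −0.60, 0.73, −0.65 and −0.76 in WT 1 to 4. FGFR1 KO 4 lay among the WT arrays, and the other 3 FGFR1 KO arrays lay below them. The difference was −0.76 ± 0.34 (adjusted p = 0.597), with a 95% confidence interval from −1.54 to 0.02, and it was −0.41 without WT 2. Both spots of this probe lay in the bright rectangle, and a probe outside it gave −0.60 ± 0.34, or −0.27 without WT 2. Adm, which encodes the vessel peptide adrenomedullin, was well above background on 3 FGFR1 KO and 0 WT arrays, too dim for a fold.

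The collagen prolyl hydroxylases, which stabilise collagen in the endoplasmic reticulum, were P4ha1 and P4ha2. P4ha2 read −3.42, −2.26, −2.78 and −2.91 in FGFR1 KO 1 to 4 and −2.53, −1.20, −1.92 and −2.38 in WT 1 to 4. FGFR1 KO 2 was the one array of its group inside the WT range. The difference was −0.84 ± 0.33 (adjusted p = 0.555), and −0.70 without WT 1 and WT 2. The P4ha2 probe was well above background on 4 FGFR1 KO and 3 WT arrays. P4ha1 differed by −0.29 ± 0.25, and by −0.09 without WT 2, and was well above background on 4 FGFR1 KO and 2 WT arrays. Fibroblast genes read lower alongside: the median of 9 fibroblast markers, all 9 lower in FGFR1 KO, was −2.11 to −0.44 on the FGFR1 KO arrays and −0.15 to 0.44 on the WT arrays. Their part in the P4ha2 difference was not tested.

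The oxygen sensors, which hydroxylate HIF and are HIF targets in turn, were Egln1 and Egln3. Egln1 differed by −0.90 ± 0.52, with WT 2 at 1.30 and the other arrays from −1.60 to −0.89, and by −0.30 without WT 2. It was well above background on all 4 FGFR1 KO and 2 WT arrays. Egln3 differed by −0.23 ± 0.53, its lowest array being WT 1 at −2.50. It turned to 0.14 without WT 2, and was −0.80 without WT 1 and −0.53 without both. A second Egln3 probe gave −0.78 ± 0.44, −0.55 without WT 2 and −1.10 without both. Kdm3a, a histone demethylase induced by HIF, differed by −0.27 ± 0.26, and by −0.47 without WT 2. Its probe was well above background on 4 FGFR1 KO and 2 WT arrays.

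Among the genes for pH control and stress, most differences were small. Car9, the tumour carbonic anhydrase used as a hypoxia marker, read −0.17, −0.38, −0.33 and −0.38 in FGFR1 KO and −0.67, −0.44, −0.20 and −0.08 in WT. The FGFR1 KO values lay inside the WT range, and the difference was 0.03 ± 0.16 (adjusted p = 0.965), with a 95% confidence interval from −0.33 to 0.39, and it was −0.18 without WT 1 and WT 2. Car12, a second membrane carbonic anhydrase, differed by 0.12 ± 0.51, by 0.08 without WT 2, and by −0.29 without WT 1 and WT 2. Ddit4, an inhibitor of mTORC1 signalling, differed by −0.20 ± 0.37, and by −0.55 without WT 2. Ankrd37, an ankyrin repeat protein, differed by −0.14 ± 0.27, by −0.30 without WT 1 and WT 2, and was well above background on 4 FGFR1 KO arrays and 1 WT array. Ndrg1, a stress-responsive gene, differed by 0.68 ± 0.78, with FGFR1 KO arrays from −2.91 to 0.68. Its difference was 0.21 without WT 2 and 0.00 without WT 1 and WT 2. Mxi1, an antagonist of Myc, was not well above background on any array.

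**Figure D3:**
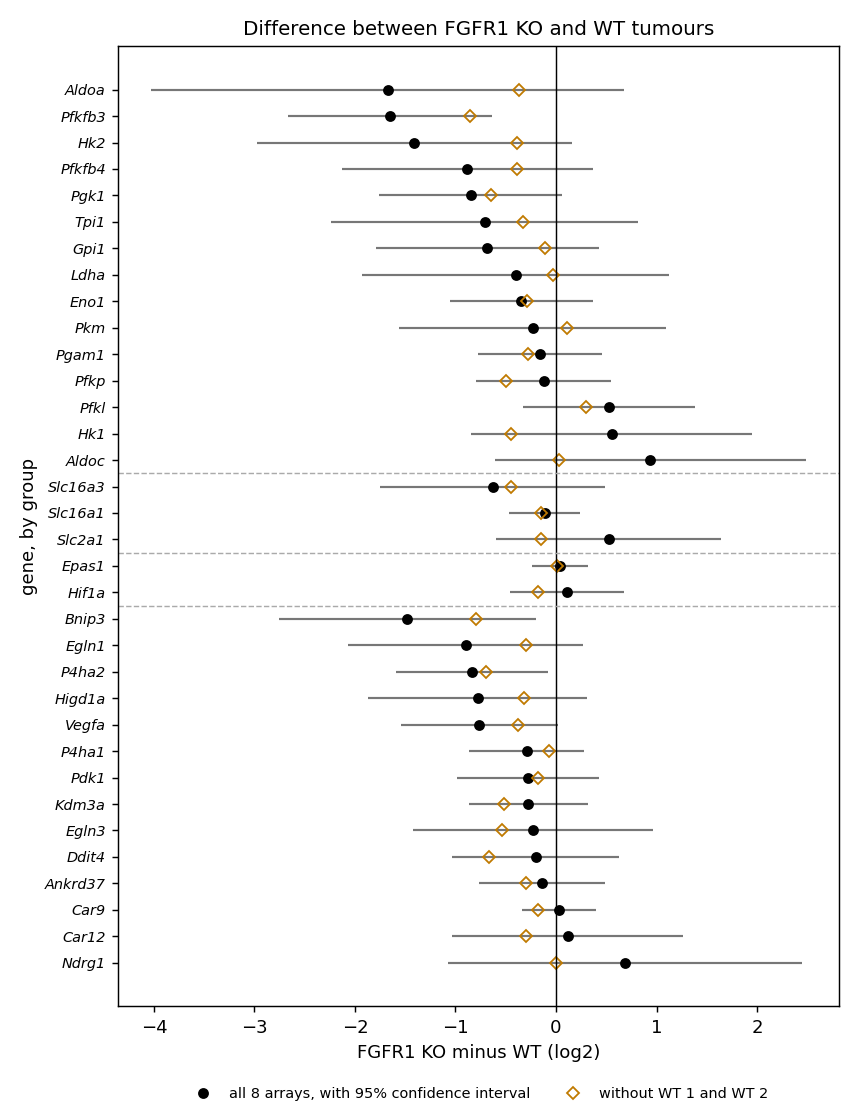
FGFR1 KO minus WT (log2) for the 34 tested members, by group; filled points are all 8 arrays with the 95% confidence interval of limma's fit, and open diamonds are the values without WT 1 and WT 2. The interval holds 0 for 31 of the 34 genes, and the diamonds of the genes with the largest differences lie nearer to 0.

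The spread between arrays was larger than the difference for most members. The range of the 4 FGFR1 KO values exceeded the size of the difference in 29 of the 34 genes, and that of the 4 WT values in 33. Leaving out 1 array turned the sign or moved the difference by over 1.5 times in 32 of the 34, all but Pfkfb3 and P4ha2, and turned the sign in 11. The median WT range was 1.93, and 0.59 without WT 2, against 1.11 in FGFR1 KO. Of the 34 members, 25 (73.5%) had a difference below 0, with a median of −0.28. Members whose groups did not overlap numbered 4 without WT 1 and WT 2, namely Pfkfb3, Bnip3, Pfkp and Pgk1, and 6.92% of all genes were apart on that side with those 6 arrays. The human reference on the same spots differed between the groups by a median of −0.02, with a range from −0.35 to 0.47. The tumour channel differed by a median of −0.33. For Hif1a the mean log2 reference level was 11.06 in FGFR1 KO and 10.63 in WT, and the red signal alone differed by 0.39. For Aldoa these levels were 14.85 and 14.38, and the red signal alone differed by −1.17. The representing probe was well above background on all 8 arrays for 26 of the 34 members and on fewer WT than FGFR1 KO arrays for 8.

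**Figure D4:**
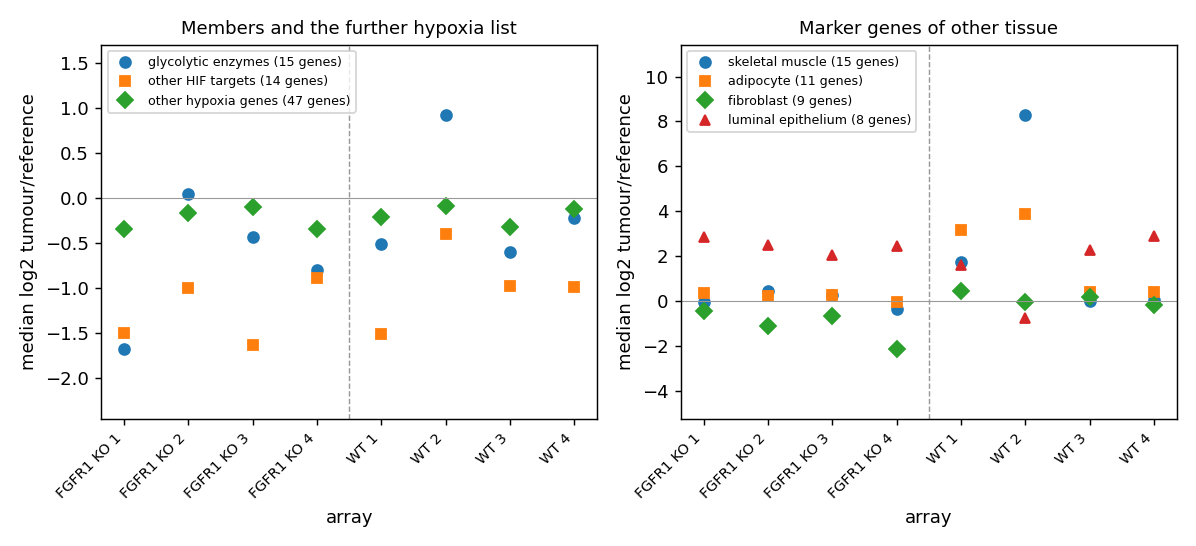
Median log2 tumour/reference ratio per array over the members and the further hypoxia genes (left) and over marker genes of other cell types (right); the dashed line separates FGFR1 KO from WT. The glycolytic median is highest on WT 2 at 0.93, the array where the skeletal muscle median is 8.30.

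Other genes of both pathways were read from 2 further lists. Of 29 further genes of glycolysis, gluconeogenesis and pyruvate use, 23 were tested, 19 had a difference below 0 and the median was −0.93, but without WT 1 and WT 2 it was −0.00, with 12 below 0. None of the 23 had an unadjusted p under 0.05. The 4 with the smallest p were Pdk4, a pyruvate dehydrogenase kinase of fasting and fat use (−1.57 ± 0.70), Pdha1, a subunit of pyruvate dehydrogenase (−1.07 ± 0.60), Bpgm, the bisphosphoglycerate mutase of red cells (−0.73 ± 0.43), and Gapdh (−1.18 ± 0.70). All 4 were highest on WT 2, and without it their differences were −0.86, −0.43, −0.31 and −0.39 in that order.

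Of 50 further hypoxia genes, 47 were tested, 25 had a difference below 0 and the median was −0.03. Without WT 1 and WT 2, 31 of 45 lay below 0 (68.9%, against 47.0% of all genes) and the median was −0.10. With all arrays, 4 of the 47 had an unadjusted p under 0.05 on the lower side, against 4.78% of all genes. On the higher side 0 did, against 3.1% of all genes. Hilpda, a HIF target that coats lipid droplets and blocks their breakdown, read −1.10, −0.57, −0.76 and −0.48 in FGFR1 KO 1 to 4 and 0.12, 0.66, −0.12 and 1.11 in WT 1 to 4. Every WT array was above every FGFR1 KO array. The difference was −1.17 ± 0.28 (adjusted p = 0.317), and −1.22 without WT 1 and WT 2, as large as with them. Its probe lay in the bright rectangle and was well above background on 2 of the 4 WT arrays. Also among the smallest p-values of this list were Lox, which cross-links collagen (−0.96 ± 0.38), and Pygl, the liver glycogen phosphorylase (−2.23 ± 0.97). Pygl was highest on WT 1 and WT 2, at 3.54 and 4.69, and its difference without them was −0.31.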

How the data were processed

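Tumour RNA labelled with the red dye and Universal Human Reference RNA with the green dye, per the labels' protocols, were hybridised together. The labels' dye field says Cy3. The scanner intensity values were deposited per spot, extracted with Agilent Feature Extraction 11.0.1.1 per the file headers, which also give a log10 ratio. A deposited table of log2 ratios correlated at 0.985 to 0.991 with the values here. Its column medians were 0.02, −0.02, −0.00, 0.00, −0.00, −0.00, −0.00 and 0.00 (FGFR1 KO 1 to 4, WT 1 to 4), and the sources used here do not state its centring.

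Median signals were background-corrected (normexp, offset 50) and loess-normalised within arrays in limma 3.58.1 (R 4.3.3), with control spots and outlier flags at weight 0. Probes whose red signal was well above background on 4 or more of the 8 arrays, with at least 3 values per group, were tested with lmFit and eBayes and adjusted by Benjamini-Hochberg over all 39795 probes. RefSeq accessions named 28331 probes. On simulated data of 39139 probes for FGFR1 KO against WT, 38%, 72%, 92% and 96% of probes changed by 1, 2, 3 and 4 log2 units were recovered, beside 9 unchanged probes called. The changed probes were picked at random, 50 per size, and the noise was normal and independent between probes. These shares therefore do not give the power for the members. Members and lists were chosen with earlier results of these data known. Every tested member is named. All 8 values are given for 9 key members, for the 3 of each group with the smallest p and for those whose groups did not overlap. From each further list, the 4 genes with the smallest p are named, except 1 that is not reported here. Alternatives tried were background correction, the scanner log ratio, channel, the deposited log2 table, filters, eBayes settings and array weights. Others were a block, the bright rectangle, the mean over probes, and arrays left out. Aquantile normalization between arrays was also run, but it leaves log ratios unchanged, so its identical result is no check.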

Additional observations from a re-analysis of the deposited data

Results flagged for a closer look

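In 8 of 98 groups of 4 arrays, 1 array stood outside the others by Dixon's criterion, which chance meets in about 1 group in 20, and 6 of the 8 fell on WT 2. Those were Aldoa at 4.52 (other WT arrays −0.63 to −0.03), Vegfa at 0.73 (−0.76 to −0.60), Bnip3 at 0.75 (−1.95 to −1.83), Egln1 at 1.30 (−1.27 to −0.89), Higd1a at 0.34 (−1.70 to −1.39) and Gapdh at 2.27 (−1.03 to −0.79), all high. Pfkl was low on FGFR1 KO 1, at −0.85, with the other FGFR1 KO arrays from 0.65 to 0.85. Epas1 was high on WT 4, at 0.0882, with the other WT arrays from −0.0618 to −0.0574, on a probe that read nearly the same on every array.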

How the results depend on the processing

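No member passed an adjusted p of 0.05 under any alternative run, and the smallest adjusted p of a member over them was 0.210. Over all probes limma called 4. It called 0 with the scanner log ratio (3725 probes at an unadjusted p under 0.05), the red signal alone (3372), probes above background on all 8 arrays (1514), trend and robust eBayes (3386), the rectangle left out (1768) and without WT 1 and WT 2 (2935), 139 with no filter on dim probes, 11 with array weights, and 0 to 1 with 1 array left out. With the replicate number as a replicate block it called 0 (3280 unadjusted). Over all genes, same-numbered arrays did not deviate together (correlations −0.13 to 0.06). A correlation over all genes can miss a pairing seen in some, so it cannot decide whether the numbers pair the samples. With the block, 2 of 15 glycolytic enzymes and 4 of 14 other HIF targets had an unadjusted limma p under 0.05. Of all 39795 probes, 3280 did with the block. In the main fit the counts were 1 and 2 members of these groups and 3376 of 39795 probes. Members are counted per gene here and the rest per probe, so the shares compare only roughly. The medians of the glycolytic enzymes and of the other HIF targets stayed below 0 throughout. The carriers' median turned to 0.0209 with the red signal alone. The median of Hif1a and Epas1 turned to −0.0845 without WT 1 and WT 2 and ran from −0.0104 to 0.213 with 1 array left out. Members lower in FGFR1 KO with no overlap numbered 4 without WT 1 and WT 2 and 2 to 6 with 1 array left out (3.52% to 4.75% of all genes), Pfkfb3 and Bnip3 among them each time. The 6 came without FGFR1 KO 2 (17.6% of members, 3.9% of all genes), with Eno1, P4ha1, P4ha2 and Higd1a added, and 4 without WT 4, with Hk2 and Vegfa added. Those higher numbered 0 to 1, the 1 being Pfkl without FGFR1 KO 1 (2.94% of members, 5.46% of all genes). Fewer arrays leave groups apart more often. With the rectangle left out, 2 of 29 members were apart on the lower side, against 1.06% of all genes. On the higher side 0 were, against 2.36%. At an unadjusted limma p under 0.05, 2 members were then lower and 0 higher. Of all 12069 genes left, 250 were lower and 483 higher, and 43.6% had a difference below 0. In the main fit 801 and 519 of 16761 genes were lower and higher. The cause of the other changes was not tested.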
